A study of Mus musculus with 59 samples.

Results

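Fluoxetine, a selective serotonin reuptake inhibitor, was compared with vehicle in the prefrontal cortex of mice heterozygous for Ank2 (HT). All 20 libraries whose title gives HT with Fluoxetine or HT with Vehicle were used, out of 59 in the series: 10 from fluoxetine and 10 from vehicle, each with 5 females and 5 males. Every mouse was C57BL/6J, and tissue was taken on postnatal day 25, after 3 weeks of exposure (days 3 to 24) through the milk of the dam. Fluoxetine and vehicle mice were heterozygous alike, so the altered copy is common to both groups. The nature of the Ank2 allele, the dose and the litters are not given in the sources used here, and pups of 1 litter would share their exposure. The p-values therefore measure the spread between libraries, which the main fit estimated over all 59. Wild-type mice (WT) on fluoxetine (9 libraries) and vehicle (10 libraries) served for a comparison of genotypes. The remaining libraries, from HT and WT mice on lithium, entered the estimate of the spread and the means over all libraries.

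Ank2 encodes ankyrin-B, an adaptor that ties membrane proteins to the spectrin cytoskeleton of axons, and it is a risk gene for autism. Fluoxetine blocks the serotonin transporter on the endings of raphe neurons and so raises serotonin outside cells. Cortical neurons answer activity within minutes with immediate early genes, which are switched on through cyclic AMP response elements and serum response elements in their promoters. Glucocorticoid hormone acts through its own receptor on glucocorticoid response elements, and interferon through interferon-stimulated response elements. Transcripts of all 3 programs differed between the groups here, and some of their promoters are printed first because the results below turn on these genes.

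The sequences are the 250 bases before the start of each gene from RefSeq on build GRCm38.p6, written 5′ to 3′ on the strand of the gene. Capitals in the first 4 mark TGACG, the core of the cyclic AMP response element, on either strand, and the CArG box of serum response factor. The TGACG cores of opposite strands overlap where they form the full palindrome. The windows are Fos at chr12:85473640-85473889, plus strand, Egr2 at chr10:67537619-67537868, plus strand, Npas4 at chr19:4989972-4990221, minus strand and Dusp1 at chr17:26508473-26508722, minus strand.
Fos: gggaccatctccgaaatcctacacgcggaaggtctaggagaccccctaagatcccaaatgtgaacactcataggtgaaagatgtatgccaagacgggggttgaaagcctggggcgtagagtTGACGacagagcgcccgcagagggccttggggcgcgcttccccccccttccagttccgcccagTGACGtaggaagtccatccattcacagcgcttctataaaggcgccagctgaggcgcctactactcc
Egr2: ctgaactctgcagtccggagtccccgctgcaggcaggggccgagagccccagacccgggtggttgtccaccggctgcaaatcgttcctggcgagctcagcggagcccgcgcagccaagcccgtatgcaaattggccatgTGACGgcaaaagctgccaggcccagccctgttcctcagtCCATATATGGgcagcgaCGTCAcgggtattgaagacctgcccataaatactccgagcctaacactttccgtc
Npas4: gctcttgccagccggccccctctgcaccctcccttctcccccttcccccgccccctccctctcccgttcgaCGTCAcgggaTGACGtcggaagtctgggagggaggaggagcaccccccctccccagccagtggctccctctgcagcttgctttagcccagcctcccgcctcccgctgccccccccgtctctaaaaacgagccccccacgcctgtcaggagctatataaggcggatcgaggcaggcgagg
Dusp1: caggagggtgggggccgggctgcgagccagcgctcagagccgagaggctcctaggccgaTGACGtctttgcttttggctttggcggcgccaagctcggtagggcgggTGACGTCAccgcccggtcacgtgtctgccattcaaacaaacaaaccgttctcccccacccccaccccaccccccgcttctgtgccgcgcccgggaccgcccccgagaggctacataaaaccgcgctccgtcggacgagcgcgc

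TGACG was in 17.8% of all 32851 windows of this length and the CArG box in 1.47%. Counted by gene, TGACG was in at least 1 window of 19.8% of genes and the CArG box in 1.62%. It was in 14 of the 20 AP-1, Egr and related early factor genes that had a window, and in 7 of the 9 that had a window and fell with fluoxetine. Egr2 had 5 starts in the table, and the one with the most matches is shown. A match is a description of the letters and not evidence of binding.

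Capitals in the following windows mark AGAACA and TGTTCT 3 bases apart, a palindromic glucocorticoid response element, in Sgk1 (chr10:21993640-21993889, plus strand), and a pair of GAAA 2 bases apart, the core of the interferon-stimulated response element, in Isg15 (chr4:156200819-156201068, minus strand) and Oas1a (chr5:120907526-120907775, minus strand), both searched on both strands.
Sgk1: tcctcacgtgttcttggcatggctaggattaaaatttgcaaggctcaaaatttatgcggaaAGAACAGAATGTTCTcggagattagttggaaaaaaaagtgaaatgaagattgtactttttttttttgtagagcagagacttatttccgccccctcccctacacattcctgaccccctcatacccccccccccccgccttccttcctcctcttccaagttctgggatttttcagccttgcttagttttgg
Isg15: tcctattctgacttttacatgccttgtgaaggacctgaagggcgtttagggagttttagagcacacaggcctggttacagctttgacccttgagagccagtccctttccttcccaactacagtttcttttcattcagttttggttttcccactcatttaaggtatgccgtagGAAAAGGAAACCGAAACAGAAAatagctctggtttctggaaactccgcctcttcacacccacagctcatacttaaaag
Oas1a: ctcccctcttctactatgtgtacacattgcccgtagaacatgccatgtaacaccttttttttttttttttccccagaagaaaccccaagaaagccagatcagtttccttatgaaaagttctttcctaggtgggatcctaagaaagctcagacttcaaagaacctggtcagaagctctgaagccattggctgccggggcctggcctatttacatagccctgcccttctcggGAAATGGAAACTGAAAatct

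The palindrome was in 3 of the 32851 windows, 1 of them at 1 of the 6 Sgk1 starts. Sgk1 was the only 1 of the 27 glucocorticoid and fasting genes with a window that had it. Of these 27, 14 were called, so the palindrome is not typical of the list. The GAAA pair was in 2.98% of windows and in 3.46% of genes. It was in 11 of the 27 inflammation and interferon genes that had a window, and in 5 of the 11 that fell. In Isg15 3 such matches overlap, and in Oas1a 2.

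The deposited values are normalized estimated counts, called normalized values below. The estimated depth of the 20 libraries was 28.2 M to 35.9 M reads, and 22566 to 23484 genes had a value above 0. Changes are differences of log2(value + 1), fluoxetine minus vehicle, averaged over the sexes. A gene is said to rise or fall where its p in limma, adjusted by Benjamini-Hochberg, was under 0.05. Several libraries stood apart. HT fluoxetine female replicate 2 differed from the mean of the other 4 of its group by over 2-fold at 1053 of 13933 genes, against 37 to 138 genes in the other 19 libraries. It had 72657 for the choroid plexus gene Ttr and 4900 for Prox1 of dentate granule cells, with at most 59.3 and 438 elsewhere. The cortical marker Tbr1 was at 1093 in it and at 2618 or more in the other 19, so this library went against its label of prefrontal cortex. Results are therefore also given without it and 3 more: HT vehicle female replicate 1, HT fluoxetine female replicate 4 and HT vehicle male replicate 2. These 3 had been set apart in an earlier look at the same data. By the count of genes over 2-fold they lay within the range of the other libraries, but HT vehicle female replicate 1 had the highest length slope (0.075) and HT vehicle male replicate 2 the highest level of striatal markers (1.60). In bulk tissue, fewer cells of a type and less RNA per cell cannot be told apart.

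**Figure D1:**
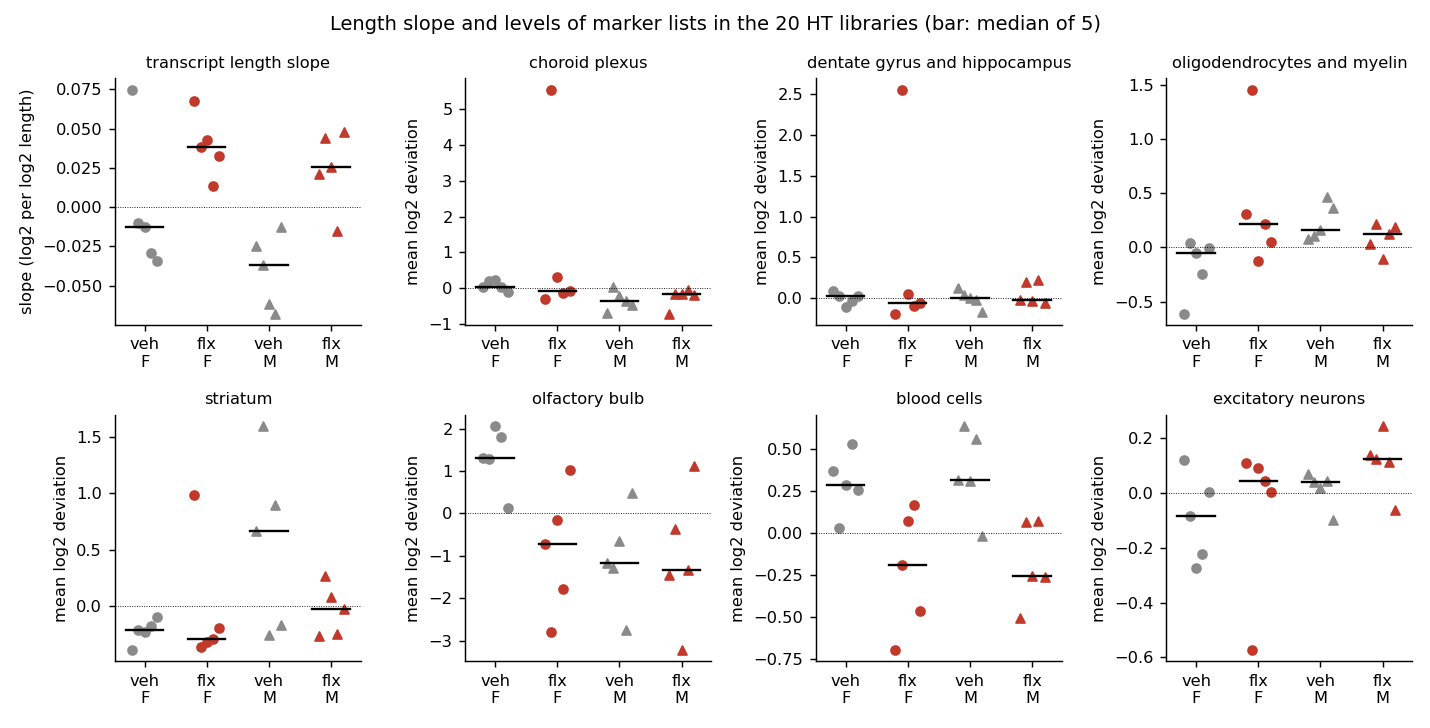
Slope of the log2 deviation on log2 transcript length, and mean log2 deviation of 7 lists of marker genes from their means over all libraries, in each HT library (grey vehicle, red fluoxetine, circles females, triangles males, bar the median of 5). 1 vehicle female lies at the fluoxetine level of the length slope, 1 fluoxetine female has a choroid plexus level of 5.54, and olfactory bulb markers are high in 4 of 5 vehicle females.

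Fluoxetine was followed by 1122 genes higher and 1248 lower in HT cortex, which is 6.63% and 7.38% of the 16919 genes tested. The median size of a called change was 0.20 (log2). A change of over 2-fold was seen in 25. Of the called genes, 2366 had the same sign in both sexes. In 42 genes every fluoxetine library was above every vehicle library (0.248% of genes), and in 29 every one was below (0.171%). The number called was 2531 without the 4 libraries that stood apart, of which 1747 were among the 2370. A fit of the HT fluoxetine and vehicle libraries alone called 1633 genes.

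Ank2 itself (ENSMUSG00000032826, chromosome 3, 126921612 to 127499350, GRCm38) was at 19255, 19664, 18538, 18998 and 19633 in vehicle females and at 19714, 19708, 19888, 19319 and 21059 in vehicle males. It was at 22308, 17431, 22813, 22575 and 20481 in fluoxetine females and at 21412, 22475, 22702, 20980.3 and 22760.2 in fluoxetine males. Of the 10 fluoxetine libraries, 7 were above every vehicle library and 3 were below the highest of them. The rise (log2 change 0.14, SE 0.04, adjusted p = 0.01) was lost once each library was corrected for transcript length and GC content (log2 change 0.05, adjusted p = 0.48).

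Immediate early genes fell. Of 24 AP-1, Egr and related early factors, 11 fell and 0 rose (median change -0.32, against -0.0024 over all genes tested), and the median was -0.45 in females and -0.31 in males. Fos (ENSMUSG00000021250, chromosome 12, 85473890 to 85477273), a subunit of the AP-1 transcription factor, was at 1556, 626, 1169, 561 and 461 in vehicle females and at 318, 107, 303, 219 and 225 in fluoxetine females. In males it was at 646, 432, 482, 369 and 661 with vehicle and at 235, 289.6, 404, 425 and 230.2 with fluoxetine. The female groups did not overlap, while 2 fluoxetine males lay above the lowest vehicle male (log2 change -1.28, SE 0.24, adjusted p = 0.00016).

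Egr2, a zinc finger early factor, was at 622, 147, 295, 126 and 122 in vehicle females and at 74.1, 29.4, 77.3, 38.9 and 50 in fluoxetine females (log2 change -1.47, SE 0.29, adjusted p = 0.00031 over both sexes). HT vehicle female replicate 1 held the highest Egr2 and Fos values of all 20 libraries, and the female groups did not overlap. Npas4, an early factor that answers calcium entry in neurons, ranged over 509.7 to 1209 (median 818) with vehicle and 218 to 841 (median 413) with fluoxetine (log2 change -0.87, SE 0.23, adjusted p = 0.0075). Only HT fluoxetine male replicate 4, at 841, lay above the vehicle median. Egr1 (-0.65), Ier2 (-0.66), Egr4 (-0.46) and Ier3 (-0.42) fell as well, with adjusted p from 0.00075 to 0.0035.

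Among 32 effectors and secreted products of early programs, 4 fell (12.5%) and 1 rose (3.1%), with a median change of -0.12. Over all genes, 7.38% fell and 6.63% rose. Arc, which takes part in the removal of AMPA receptors from synapses, was at 8341, 1774, 4764, 1653 and 2023 in vehicle females and at 953, 1928, 1440.3, 994 and 949 in fluoxetine females (log2 change -1.01, SE 0.30, adjusted p = 0.016). The female groups overlapped at Arc through HT fluoxetine female replicate 2, and HT vehicle female replicate 1 was again the highest. Rgs2, a brake on G protein signalling, had the smallest p of the list and ranged over 1128 to 1482 (median 1300.5) with vehicle and 769 to 1243 (median 1030.4) with fluoxetine (log2 change -0.33, SE 0.06, adjusted p = 5.7e-05). Unlike Arc, Rgs2 was lowest among the vehicle libraries in HT vehicle female replicate 1. The other falls were those of Coq10b (-0.30) and of the growth arrest gene Gadd45b (-0.39), and the rise was that of the sorting receptor Sorcs3 (0.17). Of 17 feedback genes of the ERK kinase pathway, 2 fell (11.8%, against 7.38% of all genes), and the median change was -0.05. They were Dusp1, a phosphatase that switches off MAP kinases (log2 change -0.54, SE 0.17, adjusted p = 0.026), and the ETS factor Etv4 (-0.28).

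Without the 4 libraries that stood apart, where 7.51% of all genes fell and 7.45% rose, 8 of the early factors fell, Fos with adjusted p = 0.0048 and Egr2 with adjusted p = 0.0071, while Dusp1 did not pass (adjusted p = 0.095). Without HT vehicle female replicate 1 alone, where 8.34% of all genes fell and 7.71% rose, the early factor count was 9 and the median change -0.24. In WT mice 0 of the 24 early factors fell (median -0.17), with 7.78% of all genes lower there. Fos had a log2 change of -0.51 in WT (SE 0.25), and its difference between the genotypes did not pass (adjusted p = 0.63).

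**Figure D2:**
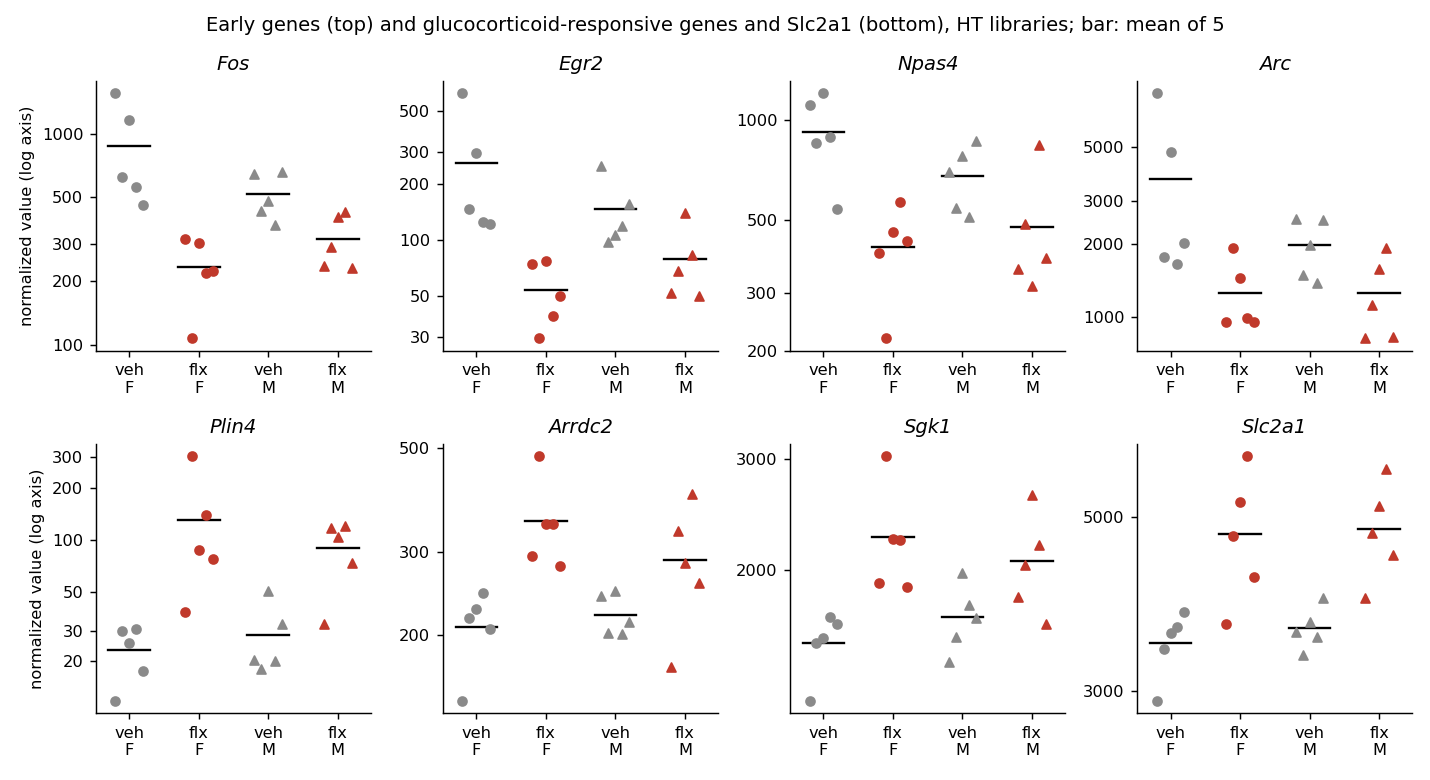
Normalized values (log axis) of 4 early genes and of 4 genes of the glucocorticoid and fasting list in each HT library (veh vehicle, flx fluoxetine, F female, M male, bar the mean of 5). All 5 fluoxetine females are below all 5 vehicle females at Fos and Egr2, and all 5 fluoxetine females are above all 5 vehicle females at Plin4, Arrdc2 and Sgk1.

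Genes that glucocorticoid hormone or fasting induces rose. Of 31 tested, 15 rose and 1 fell (Ddit3, of the stress response), and the median change was 0.24 (0.30 in females, 0.19 in males). Plin4, which coats lipid droplets, was at 11.8, 29.9, 25.6, 30.8 and 17.5 in vehicle females and at 38.2, 305, 87.1, 140.2 and 77.6 in fluoxetine females. It was at 20.4, 18, 50.5, 19.9 and 32.9 in vehicle males and at 32.7, 117, 104, 120.1 and 73.2 in fluoxetine males. The female groups did not overlap, and HT fluoxetine male replicate 1 was the 1 fluoxetine male inside the vehicle range (log2 change 1.89, SE 0.27, adjusted p = 1.7e-06).

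Arrdc2, an arrestin-like adaptor, ranged over 145 to 248 (median 216) with vehicle and 171 to 480.2 (median 314) with fluoxetine (log2 change 0.54, SE 0.12, adjusted p = 0.0011). Sgk1, the serum and glucocorticoid regulated kinase, ranged over 1235 to 1977 (median 1599) and 1641 to 3038 (median 2114) (log2 change 0.42, SE 0.10, adjusted p = 0.0043). Klf15, a zinc finger factor of the fasting response, ranged over 466 to 532 (median 506) and 454 to 890.4 (median 672) (log2 change 0.34, SE 0.08, adjusted p = 0.0017). At Arrdc2, HT fluoxetine male replicate 1 was below 9 of the 10 vehicle libraries, and at Klf15 HT fluoxetine female replicate 1 was below every vehicle library while HT fluoxetine male replicates 1 and 5 lay within the vehicle range. Slc2a1, the glucose transporter GLUT1 of the blood-brain barrier and of glia, stands in this list and in the endothelial list. It ranged over 2912 to 3943 (median 3562) with vehicle and 3655 to 5988 (median 4750.3) with fluoxetine, with 1 fluoxetine library, HT fluoxetine female replicate 1, below the highest vehicle value (log2 change 0.43, SE 0.09, adjusted p = 0.001). Gpd1, an enzyme between glycolysis and lipid synthesis, rose by 0.24.

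The count of this list dropped when all 4 libraries that stood apart were left out together: 5 genes rose and 2 fell, Ddit3 and Ddit4 (median 0.14). Plin4 (adjusted p = 0.00026), Slc2a1, Arrdc2, Klf15 and Gpd1 rose in that fit, while Sgk1 did not pass (adjusted p = 0.079). Without HT fluoxetine female replicate 2 alone, 13 rose and 1 fell (median 0.18), with 1214 of all 16919 genes higher and 1271 lower. Without HT vehicle female replicate 1 alone, 12 rose and 1 fell (median 0.20), with 7.71% of all genes higher and 8.34% lower. In WT 0 of the list rose and 2 fell (median 0.04), with 7.0% of all genes higher and 7.78% lower there. Plin4 had a log2 change of 0.60 there, and no gene of the list differed between the genotypes by an adjusted p, with 9 of 31 at an unadjusted p under 0.05, against 1291 of all 16919 genes.

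Inflammation and interferon genes were lower. Of 30 tested, 11 fell and 0 rose (median -0.23). Ifitm3, an antiviral membrane protein that is also made by vessel cells, was at 287, 248, 309, 307 and 276 in vehicle females and at 178, 204, 202, 208 and 203 in fluoxetine females. In males it was at 264, 272, 215, 296 and 231 with vehicle and at 189, 162, 234, 207 and 199 with fluoxetine. The female groups were apart, and 1 fluoxetine male overlapped 2 vehicle males (log2 change -0.44, SE 0.08, adjusted p = 9.4e-05). The MHC class I genes H2-D1 (-0.24) and B2m (-0.21) fell, as did the interferon-induced genes Oas1a (-0.65) and Isg15 (-0.63), whose promoters are shown above, and the cytokine Il1a (-0.63). The vehicle means of the latter 3 were 30.6, 49.2 and 24.2, and none of them passed without the libraries that stood apart, where 8 of the list fell. B2m did not pass after the length and GC trend was removed (adjusted p = 0.18).

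Globin mRNA of red cells was lower. Of 7 blood cell genes, 5 fell, 4 of them globins. Hbb-bt, an adult beta globin, ranged over 524 to 1041 (median 780) with vehicle and 263 to 611 (median 397) with fluoxetine (log2 change -0.92, SE 0.19, adjusted p = 0.00074), and Hbb-bs, Hba-a2 and Hba-a1 changed by -0.80, -0.71 and -0.61. Blood and interferon genes were lower in the same groups, and the part of blood in the interferon result was not tested.

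Markers of vessel cells and microglia moved in both directions. Of 28 endothelial and pericyte genes, 5 rose and 6 fell. Cldn5, the tight junction protein claudin-5, ranged over 901 to 1225 (median 1052) with vehicle and 616 to 981 (median 835) with fluoxetine (log2 change -0.35, SE 0.06, adjusted p = 0.00011). Cd93 (-0.43), a surface protein of endothelium, and Slc16a1 (-0.37), a lactate transporter, also fell. The transporters Slc2a1, Abcb1a (0.26) and Mfsd2a (0.34) rose. Of 25 microglia genes, 4 rose and 3 fell. Tyrobp, the signalling adaptor DAP12, ranged over 274 to 407 (median 319.7) and 231 to 327 (median 251) (log2 change -0.35, SE 0.06, adjusted p = 1.9e-05), and Ly86 (-0.31) and Aif1 (-0.36) fell with it. Laptm5 (0.26), Mertk (0.39) and the growth factor receptor Csf1r (0.23) rose, and none of these 3 passed without the libraries that stood apart. The longest transcript was 597 bases for Tyrobp, 2684 for Ly86 and 875 for Aif1, against 2600, 4302 and 4701 for Laptm5, Mertk and Csf1r. After length and GC correction, 5 of the 25 microglia genes rose and 2 fell (median 0.05), with 4.76% of all genes called in each direction.

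**Figure D3:**
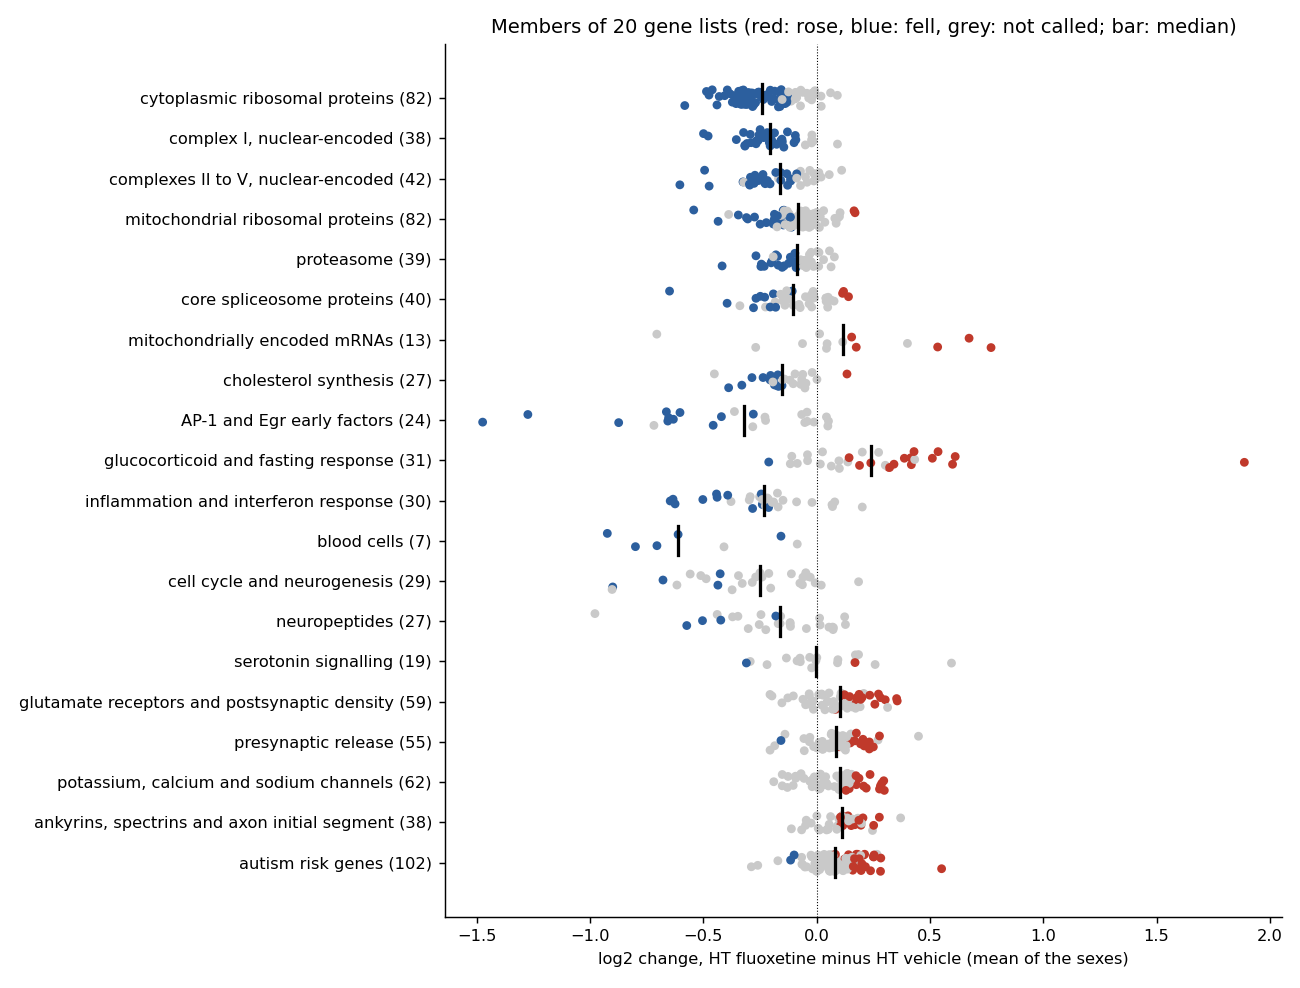
Log2 change of each tested member of 20 gene lists (number tested in brackets), HT fluoxetine minus HT vehicle, with red for genes that rose, blue for genes that fell, grey for genes not called, and a bar at the median. Ribosomal and respiratory chain genes lie left of 0, and synaptic, channel and ankyrin genes mostly right of it.

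Messenger RNAs of the machinery for energy and protein supply were lower in fluoxetine libraries. Of 82 cytoplasmic ribosomal protein genes, 59 fell and 0 rose (median -0.24, -0.17 in females and -0.30 in males). Of 38 nuclear genes of complex I, the entry point of electrons into the respiratory chain, 32 fell (median -0.21), and of 42 nuclear genes of complexes II to V, 26 fell (median -0.16). Falls were fewer for mitochondrial ribosomal proteins, at 24 of 82 with 2 rises (Mrps30 and Mrps34), for the proteasome, which degrades tagged proteins, at 18 of 39, and for core spliceosome proteins, at 10 of 40 with 3 rises (Sf3b2, Prpf8 and Snrnp200). Translation factors were mixed, with 7 rises and 11 falls among 43: the elongation factor Eef2 rose (0.19) in every fluoxetine library above every vehicle library, and the initiation factors Eif1 (-0.25) and Eif4a1 (-0.24) fell.

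Cox7a2, a subunit of cytochrome c oxidase, was at 3525, 3546, 3528, 3585 and 3397 in vehicle males and at 2595, 2536, 2434, 2539 and 2312 in fluoxetine males. In females it was at 2297, 3343, 3294, 3366 and 3253 with vehicle and at 2186, 1899.7, 2324, 2667 and 2281 with fluoxetine (log2 change -0.48, SE 0.05, adjusted p = 1.3e-09). The male groups were far apart, and in females HT vehicle female replicate 1 lay among the fluoxetine libraries. Atp5e, the epsilon subunit of ATP synthase, ranged over 1097 to 1756 (median 1625) with vehicle and 916 to 1304 (median 1017) with fluoxetine (log2 change -0.60, SE 0.06, adjusted p = 5.3e-10). Ndufa1, a subunit of complex I, ranged over 858 to 1384 (median 1318) and 792 to 1113 (median 869.8) (log2 change -0.50, SE 0.07, adjusted p = 1.5e-06). For both genes the lowest vehicle value was that of HT vehicle female replicate 1, and every other vehicle library was above every fluoxetine library.

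Rpl34, a protein of the large ribosomal subunit, ranged over 1314 to 1969 (median 1786) with vehicle and 1232 to 1466 (median 1313) with fluoxetine (log2 change -0.41, SE 0.05, adjusted p = 6.6e-09). The lowest vehicle value was once more that of HT vehicle female replicate 1. Rpl22l1, a paralogue of Rpl22, changed most within its list's named members (-0.58), and Rps24 (-0.32), Rpl9 (-0.37) and Rpl35a (-0.39) followed. Mrpl33, of the mitochondrial ribosome, ranged over 488 to 697 (median 596) and 342 to 489 (median 405) (log2 change -0.54, SE 0.06, adjusted p = 1.1e-09), with 1 fluoxetine male at 489 above the lowest vehicle library. The catalytic proteasome subunit Psmb7 ranged over 2699 to 3524 (median 3264) and 2581 to 2989 (median 2611) (log2 change -0.25, SE 0.03, adjusted p = 2e-08), and Snrpg, a ring protein of spliceosomal snRNPs, over 249 to 569.8 (median 485) and 217 to 344 (median 292) (log2 change -0.65, SE 0.12, adjusted p = 0.00015). At both, HT vehicle female replicate 1 was the lowest vehicle library. Ribosomal protein genes have many processed pseudogenes, among which the authors' counting could have divided reads. Whether this division differed between the groups was not tested.

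After the length and GC trend was removed, when 4.76% of all genes were lower and 4.76% higher, 44 ribosomal protein genes fell and 4 rose (median -0.17), 22 complex I genes fell (median -0.13), and 15 genes of complexes II to V fell and 2 rose. For the mitochondrial ribosome the count was 10 and for the proteasome 9. Without the 4 libraries that stood apart, 68 ribosomal protein and 31 complex I genes fell. Among those left out was HT vehicle female replicate 1, the vehicle library with the lowest mean log2 deviation of ribosomal protein genes (-0.24). In WT, 65 ribosomal protein genes (median -0.27) and 34 complex I genes (median -0.25) fell.

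The 13 mRNAs encoded in mitochondrial DNA did not fall with the nuclear genes of the same complexes: 5 rose and 0 fell (median 0.11). Without the libraries that stood apart, mt-Nd6 and mt-Nd4l rose and the other 3 did not pass (median 0.08). In WT 2 rose and 0 fell (median -0.0021), with 7.0% of all genes higher and 7.78% lower there. mt-Nd4l, a complex I subunit, was at 28667, 14556, 15327, 20850.5 and 17085 in vehicle females and at 29576, 30675, 34569.8, 26592 and 30193 in fluoxetine females (log2 change 0.77, SE 0.16, adjusted p = 0.00057). It was at 18548, 17948, 13895, 17348 and 20466 in vehicle males and at 34812, 32023, 23286, 38069 and 31069.6 in fluoxetine males, where the groups did not overlap. mt-Co2, of cytochrome c oxidase, was at 23238 in HT vehicle female replicate 1 and over 60948 to 99795 in vehicle males. It ranged over 80268 to 117620 (median 104751) with fluoxetine, and its rise (log2 change 0.67, SE 0.23, adjusted p = 0.038) was lost without the libraries that stood apart (adjusted p = 0.1). mt-Nd6 (0.53), mt-Nd5 (0.17) and mt-Nd4 (0.15) also rose, and mt-Nd4l overlaps mt-Nd4 on the mitochondrial genome, so that reads can be shared.

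**Figure D4:**
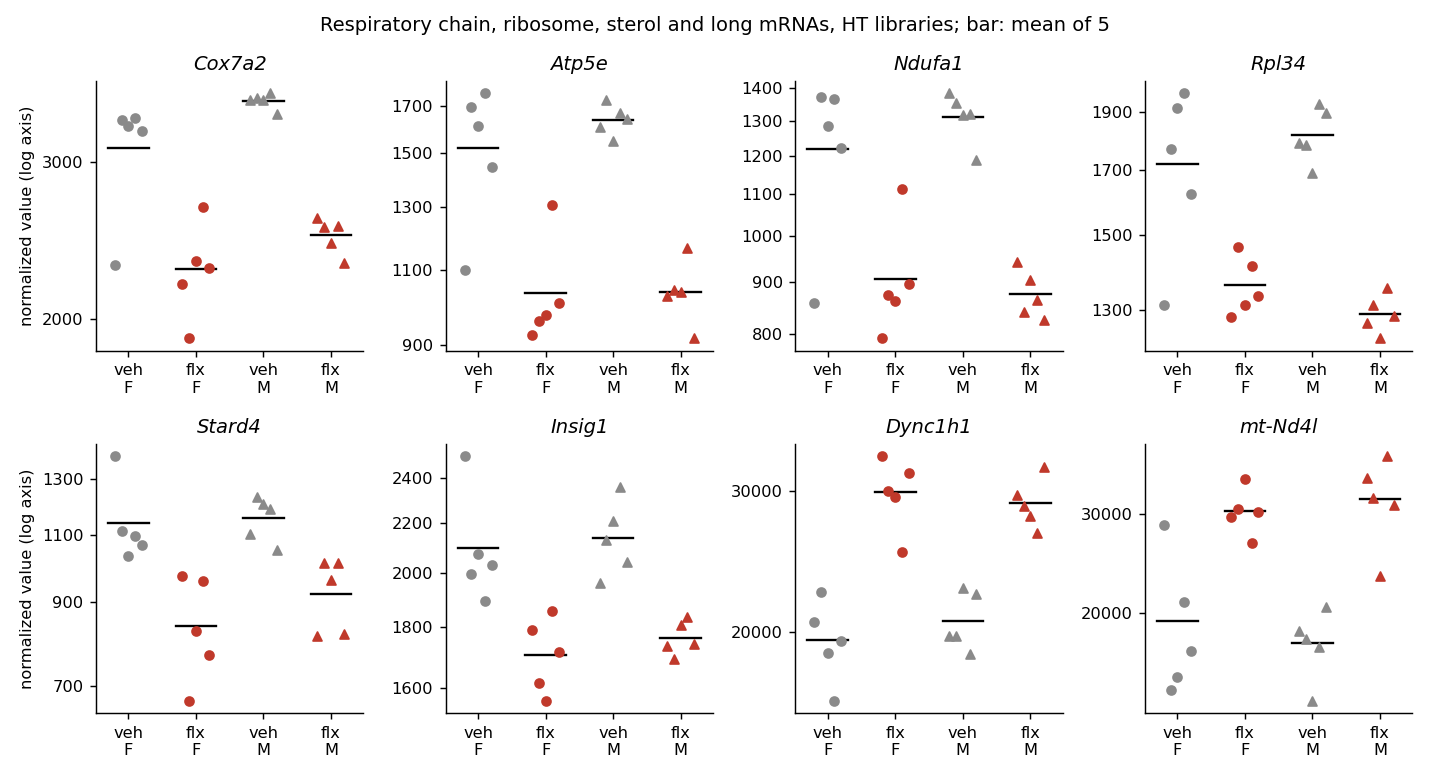
Normalized values (log axis) of respiratory chain, ribosomal, sterol and long mRNAs in each HT library (veh vehicle, flx fluoxetine, F female, M male, bar the mean of 5). Stard4, Insig1 and Dync1h1 do not overlap between drug groups, and 1 vehicle female lies at the fluoxetine level of Cox7a2, Atp5e, Ndufa1 and Rpl34.

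Genes of cholesterol synthesis and its control were lower. Of 27 tested, 12 fell and 1 rose (Scap, the escort of the SREBP transcription factors), and the median was -0.15, with -0.10 in females and -0.18 in males. Stard4, a carrier of sterols between membranes, was at 1391, 1111, 1031, 1095 and 1067 in vehicle females and at 970.3, 669, 825, 958 and 767 in fluoxetine females. In males it was at 1102, 1232, 1206, 1187 and 1050.1 with vehicle and at 813, 1009.9, 959, 1009 and 817 with fluoxetine. All 10 fluoxetine libraries were below all 10 vehicle libraries (log2 change -0.39, SE 0.06, adjusted p = 7.1e-06).

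Insig1, which holds SREBP in the endoplasmic reticulum and is itself an SREBP target, ranged over 1894 to 2507 (median 2056) with vehicle and 1559.8 to 1855 (median 1739.8) with fluoxetine, again without overlap (log2 change -0.29, SE 0.06, adjusted p = 0.0003). Fdps, the farnesyl diphosphate synthase, ranged over 1251 to 1655 (median 1483) and 1091 to 1301 (median 1136) (log2 change -0.33, SE 0.05, adjusted p = 5.1e-06), and HT fluoxetine female replicate 2 alone, at 1301, was above the lowest vehicle library. Acat2 (-0.19), Idi1 (-0.24) and the squalene epoxidase Sqle (-0.21) fell too. After length and GC correction 8 fell, without the libraries that stood apart 10, and in WT 16 fell and 1 rose (median -0.17). Of 21 genes of fatty acid synthesis, 2 rose and 0 fell, the rises being those of the acyl-CoA synthetase Acsl3 (0.31) and of Fasn (0.16).

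Autophagy and lysosome genes were divided, with 5 rises (9.259%) and 7 falls (12.96%) among 54. Over all genes, 6.63% rose and 7.38% fell. The median change of the list was 0.00083, so the list as a whole did not move to either side. Gabarapl2 (-0.19), Gabarapl1 (-0.16) and Map1lc3a (-0.22), ubiquitin-like proteins of the autophagosome membrane, fell, as did the protease Ctsl (-0.24). All fluoxetine libraries were below all vehicle libraries at Gabarapl2. Atp6v1f (-0.22) of the proton pump fell and Atp6v0a1 (0.14) of the same pump rose. In the integrated stress response 3 of 30 genes rose (10%) and 5 fell (16.7%), among them its main factor Atf4 (log2 change -0.20, SE 0.04, adjusted p = 0.0014). Of 32 heat shock and unfolded protein genes, Atf6 rose (0.24), and Xbp1 (-0.22) and the chaperonin Hspe1 (-0.17) fell. These were 3.125% and 6.25% of the list, below the shares over all genes.

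Synaptic, channel and axonal genes were higher. Of 59 genes encoding glutamate receptors or postsynaptic density proteins, 18 rose and 0 fell (median 0.10). Counts of rises were 14 of 55 for presynaptic release, with 1 fall, 16 of 62 for potassium, calcium and sodium channels, 13 of 38 for ankyrins, spectrins and the axon initial segment, and 5 of 24 for GABA receptors and the inhibitory synapse. Of 102 autism risk genes, 28 rose and 2 fell, Ilf2 and Ctnnb1. Genes of these lists have long transcripts, with a median longest transcript of 5673 bases for the glutamate list, 6688 for the ankyrin list and 6704 for the autism list, against 3261 over all genes and 1076 for ribosomal proteins.

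Dync1h1, the heavy chain of the dynein motor that carries cargo back along axons, was at 20603, 22409, 18847, 16395 and 19466 in vehicle females and at 33122, 29953, 29433, 25123 and 31553 in fluoxetine females. In males it was at 19738, 19773, 22651, 18755 and 22294 with vehicle and at 29611, 28693, 27916, 26533 and 32092 with fluoxetine. All 10 fluoxetine libraries were above all 10 vehicle libraries (log2 change 0.55, SE 0.07, adjusted p = 2.8e-07). Shank1, a scaffold of the postsynaptic density, ranged over 17428 to 21706 (median 18368) and 19869 to 29034 (median 24019) (log2 change 0.35, SE 0.06, adjusted p = 1.3e-05), and Grin2b, an NMDA receptor subunit of young cortex, over 21728 to 29308 (median 23979) and 26068 to 34878 (median 30136) (log2 change 0.28, SE 0.06, adjusted p = 0.00047). For both the highest vehicle value was that of HT vehicle female replicate 1.

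Ank3, the ankyrin-G that organizes the axon initial segment, ranged over 11947 to 15375 (median 13713) with vehicle and 15114 to 17711 (median 15982) with fluoxetine, and 1 fluoxetine library was below the highest vehicle one (log2 change 0.25, SE 0.04, adjusted p = 1.5e-05). Of the spectrins that bind ankyrins, Sptbn1 (0.15) rose without overlap, and Sptb (0.28), Sptan1 (0.11) and Sptbn4 (0.17) rose. Dnm1, the dynamin of vesicle retrieval, also rose without overlap (log2 change 0.28, SE 0.04, adjusted p = 1.1e-05), and the synaptic organizer Nrxn2 (0.23) rose. Among channels, the rises included that of Cacna1a (0.24), the P/Q-type calcium channel. Camk2a, the kinase of excitatory synapses, rose by 0.27, and Shisa7, an auxiliary protein of GABA receptors, by 0.25 without overlap.

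After length and GC correction the rises numbered 8 for the glutamate list, 8 for presynaptic release, 10 for channels, 3 for the ankyrin list, 1 for the GABA list and 14 for autism risk genes, with 4.76% of all genes higher. Shank1 (adjusted p = 0.001), Ank3 (adjusted p = 0.0008), Grin2b (adjusted p = 0.042), Dnm1 and Dync1h1 kept their rise, while Sptan1 and Sptbn4 did not pass. Without the 4 libraries that stood apart the rises were more, at 21, 20, 26, 16, 11 and 38 in the same order, with 7.45% of all genes higher. HT vehicle female replicate 1, left out there, had the highest length slope of the 20 libraries (0.075). These larger counts are therefore not independent support.

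Transcript length moved with the drug groups across the transcriptome. In each library the log2 deviation of a gene from its mean was regressed on the log2 length of its longest transcript over 10789 genes whose mean was 250 or more. This slope was 0.075, -0.010, -0.012, -0.029 and -0.034 in vehicle females, and 0.068, 0.038, 0.043, 0.014 and 0.032 in fluoxetine females. It was -0.068 to -0.013 in vehicle males and -0.015 to 0.048 in fluoxetine males. HT vehicle female replicate 1 had the highest slope of all 20 libraries. The mean difference was 0.053 log2 units per doubling of length (0.041 in females, 0.066 in males, two-sided exact permutation p = 0.0017 within sexes, n = 10 per group). Of the 2159 genes with the shortest transcripts, up to 2239 bases, 26.1% fell and 2.73% rose. Of the 2157 with the longest, from 5751 bases, 1.58% fell and 17.6% rose. RNA quality and preparation batches are not given in the sources used here, so a drug effect on long mRNAs and a difference in preparation cannot be told apart.

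Of the genes of serotonin signalling, 2 changed, in neither direction a larger share than over all genes. Among 19 receptors, enzymes and partners tested, S100a10 fell and Maob rose (5.26% each, against 7.38% of all genes that fell and 6.63% that rose). Without the 4 libraries that stood apart 2 of the list rose and 1 fell, with 7.45% and 7.51% of all genes. S100a10, known as p11, brings serotonin receptors to the surface of cells, and ranged over 468 to 559 (median 516) with vehicle and 286 to 492 (median 410.2) with fluoxetine (log2 change -0.31, SE 0.06, adjusted p = 0.00012). HT fluoxetine female replicate 5 and HT fluoxetine male replicate 1 lay within the vehicle range. Maob, an oxidase of monoamines, had a log2 change of 0.17 (adjusted p = 0.0094). Slc6a4, the serotonin transporter that fluoxetine blocks, is transcribed in raphe neurons and was at 0.895 to 9.56 with vehicle and 0 to 5.22 with fluoxetine, too low for a test. Htr2a, the main excitatory serotonin receptor of cortex, ranged over 1576 to 2310 (median 1930) with vehicle. With fluoxetine it was at 412 in HT fluoxetine female replicate 2 and at 2017 to 2582 in the other libraries. In males it was at 1769 to 2079.6 with vehicle and 2062 to 2582 with fluoxetine. Of 26 neurotrophin and CREB genes, 4 rose: Crebbp (0.24), Ntrk3 (0.17), the BDNF receptor Ntrk2 (0.12) and Crtc1 (0.14). Bdnf itself ranged over 703 to 1219 (median 869.5) with vehicle and 658 to 1296 (median 861) with fluoxetine. Of 19 clock genes 0 rose and 0 fell, and without the libraries that stood apart 3 rose, Clock, Npas2 and Rorb.

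Some genes of dividing and immature cells fell. Of 29 tested, 4 fell (13.8%, against 7.38% of all genes) and 0 rose (median -0.25): Nes (-0.44), the nestin of progenitors, Cdk1 (-0.90), Top2a (-0.68) and Sox4 (-0.43). By sex, 1 fell in females and 2 in males, with 4.43% and 2.39% of all genes lower. In WT 0 fell (median -0.08), with 7.78% of all genes lower there. Fabp7, a fatty acid carrier of radial glia and olfactory ensheathing cells, was at 3784, 2717, 5318, 4969 and 1861 in vehicle females and at 1122, 943, 1167, 1056 and 1942 in fluoxetine females. In males it was at 1278, 1240.2, 1374, 1301 and 2071 with vehicle and at 990.5, 986, 710.2, 1343 and 1942 with fluoxetine (log2 change -0.93, SE 0.25, adjusted p = 0.0077). The 4 highest values were those of HT vehicle female replicates 3, 4, 1 and 2, the same 4 libraries in which the mean log2 deviation of 11 olfactory bulb markers was highest (1.31, 1.29, 2.05, 1.8 and 0.12 in vehicle females, -0.73, -2.81, -0.16, -1.79 and 1.03 in fluoxetine females). Doc2g, a bulb marker, was at 1904, 2065, 3574, 3132 and 1095 in vehicle females and at 586, 109, 759, 409 and 1845 in fluoxetine females. The part of this in the fall of Fabp7 and of the cell cycle genes was not tested.

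Other cell type lists differed in their share of called members, against 6.63% of all genes that rose and 7.38% that fell. Oligodendrocyte and myelin genes had 1 rise, that of Olig2 (0.32), among 30, with a median of 0.58 in females and -0.13 in males. Their mean log2 deviation was 1.46 in HT fluoxetine female replicate 2 and -0.61 in HT vehicle female replicate 1, and Olig2 did not pass without the libraries that stood apart. Of 20 precursor genes 4 rose, among them Tnr (0.29), Pdgfra (0.28) and Cspg4 (0.36), and of these Tnr passed without the libraries that stood apart. Astrocyte genes (22.7% rose, 13.6% fell) had 5 rises, such as Slc1a2 (0.29), Fgfr3 (0.40) and Aldoc (0.23), and 3 falls, such as Id3 (-0.39), among 22. Without the libraries that stood apart 2 astrocyte genes rose and 3 fell (median -0.013). Inhibitory neuron genes had 3 falls among 26: Cort (-0.42), Nxph1 (-0.18) and Tac1 (-0.50). The level of 20 striatal markers was 0.66, 1.60, -0.26, 0.90 and -0.17 in vehicle males and -0.27, 0.26, 0.08, -0.25 and -0.03 in fluoxetine males. HT vehicle male replicate 2, the highest, is 1 of the 4 libraries that stood apart, and without these Tac1, which striatal neurons also express, did not pass (adjusted p = 0.26).

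Among the remaining genes with the largest changes, Sec61g, a subunit of the channel through which proteins enter the endoplasmic reticulum, ranged over 159 to 343 (median 272) with vehicle and 119 to 194 (median 152) with fluoxetine (log2 change -0.79, SE 0.11, adjusted p = 3.8e-07). All vehicle libraries other than HT vehicle female replicate 1 were above all fluoxetine libraries. Aplnr, the apelin receptor of endothelium, was at 147, 133, 168, 111 and 124 in vehicle females and at 86.5, 28.7, 79.3, 75 and 81.2 in fluoxetine females (log2 change -0.81, SE 0.18, adjusted p = 0.0012), and Cdca7 fell by 0.85. Bc1, a small noncoding RNA of dendrites transcribed by RNA polymerase III, ranged over 286 to 2441 (median 1641) with vehicle and 899 to 4275 (median 2643) with fluoxetine. Its rise (log2 change 0.90, SE 0.28, adjusted p = 0.022) did not pass without the libraries that stood apart (adjusted p = 0.055). The other large rises were those of Slc2a5 (0.72), a fructose transporter of microglia, Pkp2 (0.68), Cpm (0.65), Alox12b (0.64), Tmem72 (0.63), Galnt15 (0.63) and the myosin gene Myh7 (0.63). Tmem72, a choroid plexus gene, was at 1382 in HT fluoxetine female replicate 2 and at 215 or less in the other fluoxetine libraries, and Slc2a5 and Pkp2 did not pass without the libraries that stood apart.

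By sex, 730 genes rose and 750 fell in HT females (8.75% of genes, 4.31% higher and 4.43% lower), and 165 rose and 404 fell in HT males (3.36%, 0.975% higher and 2.39% lower). Called in both were 285 genes, all with the same sign. The count in females changed with the libraries in the fit: a fit of the 10 HT female libraries alone called 1 gene, the pseudogene Rpl14-ps1, against 618 in males by the same fit. In the fit with all groups the count in females was 802 without HT fluoxetine female replicate 2, 986 without HT vehicle female replicate 2, 792 without HT vehicle female replicate 3 and 708 without HT vehicle female replicate 4. That in males was 351 without HT vehicle male replicate 4. No gene differed in its response between the sexes (0 called by limma, 1392 at an unadjusted p under 0.05, smallest adjusted p = 0.52). Ribosomal protein genes fell in 30 of 82 cases in females and in 53 in males, and early factors in 11 of 24 in females and 0 in males. Cholesterol genes fell in 4 of 27 in females and 6 in males. Of the glucocorticoid and fasting list 11 rose in females and 1 in males. These counts do not show a difference between the sexes, since no member of the 4 lists passed the test of it.

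**Figure D5:**
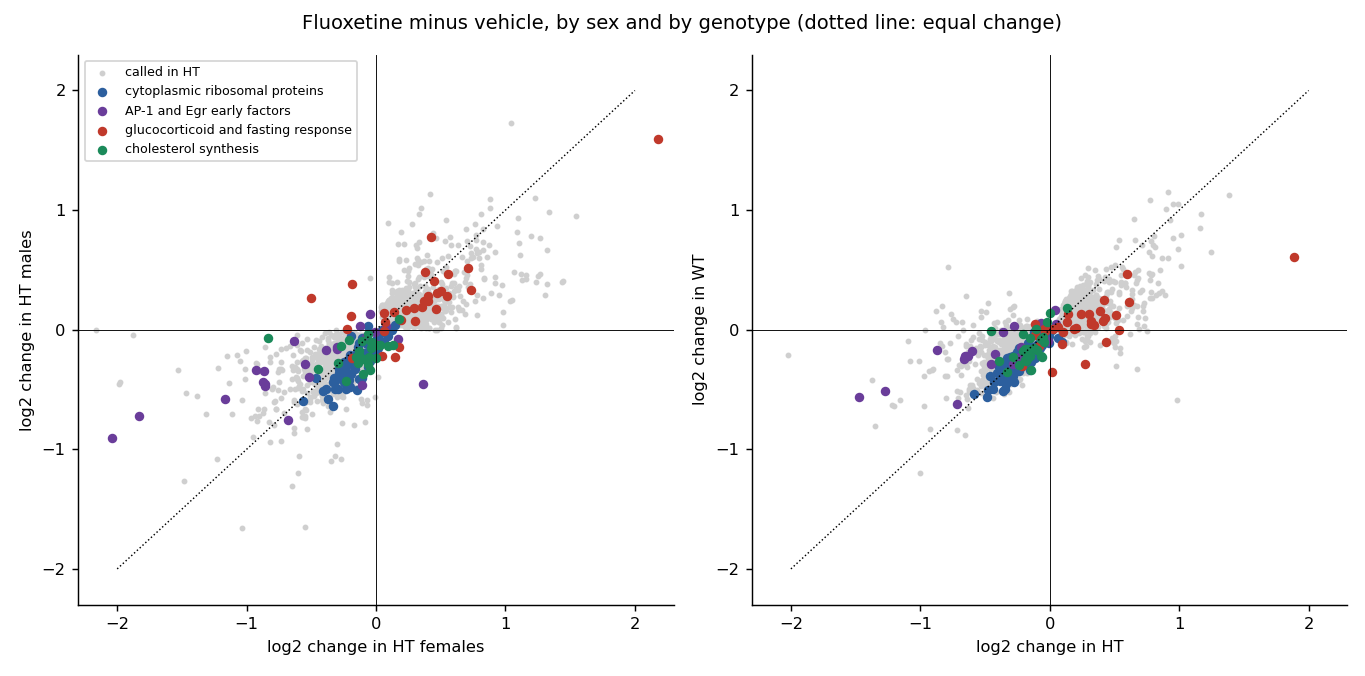
Log2 changes of genes called in HT (grey, of which 8 lie outside the axes in 1 of the panels) and of 4 gene lists (colours), for HT males against HT females (left) and for WT against HT (right), with a dotted line at equal change. Early factors (purple) and glucocorticoid genes (red) lie farther from 0 in HT than in WT, a difference that no single gene's test passed, and ribosomal genes (blue) lie near the line.

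The response was compared with that of WT mice, which shares no library with it. Of the 2370 genes called in HT, 2252 (95%) had the same sign in WT, against 70% of all genes tested. Called in both were 1161, which is 49% of the HT genes and 46.4% of the 2500 WT genes. The calls of both genotypes came from the same fit with a shared estimate of each gene's spread, so they are not independent. The test of the difference between the genotypes called 0 genes (limma, 1291 at an unadjusted p under 0.05, smallest adjusted p = 0.26). Its smallest p belonged to Pnpla7, a lysophospholipase (0.49 in HT, -0.11 in WT), Cd93 (-0.43 and 0.05), Tgif2, a homeobox corepressor (-0.73 and 0.06), Nf1 (0.09 and 0.32) and Ddx6 (-0.02 and 0.17). The inflammation and interferon list had 5 falls among 30 in WT (median -0.12), and blood cell genes 5 of 7 (median -0.48), with 7.78% of all genes lower.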

How the data were processed

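Poly(A) RNA of mouse prefrontal cortex was sequenced in 59 libraries of 12 groups (genotype, drug and sex), with a stranded TruSeq mRNA kit, per the labels' protocols. The deposited table holds a normalized signal per gene, which the authors made with Salmon 0.11.2, R 3.6.0 and DESeq2 1.19.11 on build GRCm38, per the submitters' processing notes. Its values are not whole counts, and whole reads could not be recovered, so no count test was run.

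Tested were the 16919 genes whose mean over all libraries reached 10. Differences of log2(value + 1) between group means were tested with limma 3.58.1 in R 4.3.3 (trend, robust empirical Bayes, 12 groups, 47 residual degrees of freedom), two-sided, with Benjamini-Hochberg adjustment over all genes. Transcript lengths and coordinates came from GENCODE M21 models, which matched 51285 of 51456 identifiers, and GC content was used for a correction with splines per library. The estimated depth rests on the value that is most frequent among low values, taken as 1 read. The steps were tested on simulated data.

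Members and 46 gene lists were chosen with earlier results of these data known, so counts over lists are descriptions. Named genes are Ank2, the 10 largest rises and the 10 largest falls among called genes whose mean reached 50 and whose sexes shared a sign (predicted genes not named), up to 6 called members of each list with the smallest p, the 5 genes of smallest p in each test of a difference, and markers of cell types. Bdnf, Scap, Ddit3, Ddit4, Clock, Npas2, Rorb, Mrps30, Mrps34, Sf3b2, Prpf8, Snrnp200 and the single genes called in an alternative were named after their values were seen. Alternatives changed the pseudocount, the filter, the scaling, the empirical Bayes step, a length and GC correction, the groups in the fit, a replicate block and each library in turn. Those 4 libraries that stood apart were left out together, and 1 setting was added after the data were seen. Some genes are not reported here.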

Additional observations from a re-analysis of the deposited data

Results flagged for a closer look

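In 21 of 212 groups of 5 libraries tested, 1 library lay far from the other 4 by Dixon's 95% critical value. Chance gives about 1 in 20.

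HT fluoxetine female replicate 2 gave 6 of these. Its mean log2 deviation was 5.54 for choroid plexus markers, 2.56 for dentate gyrus and hippocampus, 2.07 for ependymal cells, 1.46 for oligodendrocytes and myelin and -0.57 for excitatory neurons, and Aplnr was at 28.7 in it against 75 to 86.5 in the other 4.

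HT vehicle female replicate 1 had a transcript length slope of 0.075, against -0.034 to -0.010 in the other 4 vehicle females. Its Cox7a2 was 2297, against 3253 to 3366, and its Stard4 was 1391, against 1031 to 1111.

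Among other females, HT fluoxetine female replicate 4 had 1304 of Atp5e, replicate 1 had 178 of Ifitm3 and a striatal level of 0.98, and replicate 5 had 1942 of Fabp7. Among males, HT vehicle male replicate 2 had 1482 of Rgs2, replicate 5 had 2071 of Fabp7 and replicate 4 had 407 of Tyrobp. HT vehicle male replicate 1 had a fibroblast and meninges level of -0.50.

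HT fluoxetine male replicate 4 had 327 of Tyrobp and an astrocyte level of 0.18. In HT fluoxetine male replicate 1 the fibroblast and meninges level was -0.24 and the choroid plexus level -0.70.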

How the results depend on the processing

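The count of 2370 genes was 1863 to 2716 over the fits that each left out 1 library. It was 1612 after length and GC correction, with 1377 of these among the 2370. A fit of the compared groups alone gave 1633, with 1565 of these among the 2370. In females the count of 1480 was 958 without a filter on low values, 913 after length and GC correction, 846 without the libraries that stood apart, and 1 in a fit of the compared groups alone. It was also 1 when HT fluoxetine female replicate 2 was left out of that fit, a setting chosen after seeing the data. Leaving out 1 library gave 708 to 1810. In males the count of 569 was 244 after length and GC correction and 351 to 701 with 1 library left out. For the difference between the genotypes, 1 predicted gene, Gm10561, was called without the libraries that stood apart. The difference in length slope was 0.049 to 0.063 with 1 library left out, and kept its sign and its side of the threshold in every alternative run for it. The cause of these shifts was not tested.

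With the replicate number as a block, in 1 fit of the 20 HT libraries (with WT for the genotypes), 1439 genes were called over both sexes, 527 in females, 224 in males and 1 predicted gene, Gm8203, for the difference between the genotypes. The block with length and GC correction gave 901, 207 and 95. The labels do not say that a number marks a shared litter or day, and the correlations of same-numbered libraries were -0.232 to 0.148 in females and -0.072 to 0.447 in males, so the numbers were not taken as pairs. As a hint from the data, 4 of 5 fluoxetine males and 1 of 5 fluoxetine females correlated best with the vehicle library of their own number, and 4 of 5 same-numbered pairs in males were above 0.1.

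Of 205 named genes called, 95 were called under every alternative, and 0 of the 212 named genes took the opposite sign where they were called. In 6 lists with few calls, the side with more called genes changed in some settings. The medians there were -0.013 for astrocytes and -0.021 for microglia without the libraries that stood apart, 0.02 for microglia with the compared groups alone and 0.034 when HT fluoxetine female replicate 2 was also left out. For endothelial genes they were -0.012 without the filter and -0.021 with the block and length and GC correction, and the median was -0.041 to 0.025 with 1 library left out. After length and GC correction they were -0.10 for fibroblasts, 0.011 for fatty acid synthesis and 0.047 for the heat shock list, which was at 0.0195 without the libraries that stood apart. With 1 library left out, fatty acid synthesis was at -0.006 to 0.033 and the heat shock list at 0.007 to 0.044. Genes with a mean under 10 were not tested.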

Other observations

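Several lists of other functions held called genes in HT cortex, where 6.63% of all genes rose and 7.38% fell. Of 27 neuropeptide genes, 4 (14.8%) fell: Cort (-0.42), Nxph1 (-0.18), Cartpt (-0.57) and Tac1 (-0.50), of which Cort passed without the 4 libraries that stood apart. In Wnt and GSK3 signalling 5 of 40 genes (12.5%) rose, among them the coreceptor Lrp5 (0.28) and the kinase Gsk3a (0.12), and Ctnnb1, which encodes beta-catenin, fell (-0.12). Of 34 perineuronal net and matrix genes, Tnr (0.29), Col4a1 (0.24) and Col4a2 (0.18) rose, and both collagens did not pass without the libraries that stood apart. In the thyroid hormone list 4 of 19 (21.1%) rose, such as the deiodinase Dio3 (0.50), and 2 fell, Aldh1a3 (-0.59) and Flywch2 (-0.28), and without the libraries that stood apart 2 rose and 1 fell. Camk2a (0.27) and Neurod2 (0.30) rose among 17 markers of excitatory neurons.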
